A study of Homo sapiens with 9 samples.

Results

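The nuclear genes for subunits of the oxidative phosphorylation complexes were examined for DNA:RNA hybrids in SH-SY5Y cells, an established human neuroblastoma line. Members were protein-coding genes on chromosomes 1 to 22 and X whose RefSeq symbols name a subunit of complex I (NDUFA, NDUFB, NDUFC, NDUFS and NDUFV symbols), complex II (SDHA to SDHD), complex III (UQCR), complex IV (COX4 to COX8 forms) or complex V (ATP5). They numbered 88 of 19974 coding genes: 38 for complex I, 4 for complex II, 9 for complex III, 17 for complex IV and 20 for complex V. Assembly factors were not members. COXFA4 and COXFA4L2, whose older symbols are NDUFA4 and NDUFA4L2, do not match the symbol rule and are described apart.

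Cells carried a stable lentiviral short hairpin RNA, either a negative control (shNC) or one that targets TDP-43 (shTDP43), the product of TARDBP and a protein that binds RNA and DNA. Selection used puromycin, 2 µg/mL over 2 weeks and then 1 µg/mL. Hybrids were measured by DRIP-seq, in which 6 µg of nucleic acid, cut with BsrGI, EcoRI, HindIII, SspI and XbaI, is pulled down with the antibody S9.6. There were 3 untreated shNC libraries, 3 untreated shTDP43 libraries and, for each hairpin, 1 library treated for 6 h with RNase H, which removes the RNA strand of a hybrid. The value per gene was the covered length, the length in kb of the gene window (the gene with 1 kb added at both sides) that lay under the authors' peaks in a library. Whether replicates are separate transductions is not given in the labels, so p-values measure only the spread between these libraries. A covered length from a bulk culture cannot tell a hybrid in more cells from a longer hybrid in the same cells.

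Oxidative phosphorylation couples electron transfer in the inner mitochondrial membrane to ATP synthesis. Complexes I and II take electrons from NADH and succinate, complex III passes them to cytochrome c, complex IV reduces oxygen, and complex V makes ATP from the proton gradient. Except for complex II, each complex joins subunits made in the cytosol from nuclear genes with subunits encoded by the mitochondrial genome, and the nuclear subunit genes are known as broadly transcribed genes whose promoters often hold sites for NRF1, ETS-family factors such as GABP, and YY1. Neurons depend heavily on this pathway, and inherited subunit defects cause Leigh syndrome and related diseases of the nervous system.

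Promoter letters of 7 members are shown because they span the range of what was measured at gene starts. UQCRC1, ATP5ME, COX8A and SDHB had their start under a peak in all 6 untreated libraries, whereas SDHA and COX8C had no start peak in any untreated library although their upstream letters hold NRF1 motifs. NDUFC2-KCTD14 is shown because its start is the upper end of NDUFC2, the tested member with the smallest p between shNC and shTDP43. Each run ends at the base before the listed start and reads toward it. It is in lower case, and capitals mark matches to 3 motifs searched on both strands: GCGCANGCG for NRF1, CCGGAAG for ETS factors and AANATGGCG for YY1, where N is any base. The letters are from RefSeq GRCh38.p14.
UQCRC1: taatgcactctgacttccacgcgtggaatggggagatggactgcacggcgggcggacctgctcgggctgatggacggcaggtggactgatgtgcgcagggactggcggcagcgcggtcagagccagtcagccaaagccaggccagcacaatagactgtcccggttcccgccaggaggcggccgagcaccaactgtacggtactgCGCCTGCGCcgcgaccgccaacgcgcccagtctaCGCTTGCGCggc
ATP5ME: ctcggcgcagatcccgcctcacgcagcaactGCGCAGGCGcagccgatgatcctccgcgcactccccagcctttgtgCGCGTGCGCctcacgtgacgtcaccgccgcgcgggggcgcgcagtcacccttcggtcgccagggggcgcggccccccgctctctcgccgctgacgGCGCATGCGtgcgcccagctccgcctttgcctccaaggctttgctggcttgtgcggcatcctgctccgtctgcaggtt
COX8A: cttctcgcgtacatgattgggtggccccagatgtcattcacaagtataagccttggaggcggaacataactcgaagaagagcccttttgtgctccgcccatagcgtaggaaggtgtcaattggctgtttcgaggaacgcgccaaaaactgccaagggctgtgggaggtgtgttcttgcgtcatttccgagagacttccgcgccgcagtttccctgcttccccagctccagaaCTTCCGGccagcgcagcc
SDHB: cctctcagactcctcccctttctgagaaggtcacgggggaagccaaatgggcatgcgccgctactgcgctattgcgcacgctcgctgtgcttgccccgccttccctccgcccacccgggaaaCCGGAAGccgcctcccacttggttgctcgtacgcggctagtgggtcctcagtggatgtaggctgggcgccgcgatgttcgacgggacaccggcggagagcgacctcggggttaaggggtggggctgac
SDHA: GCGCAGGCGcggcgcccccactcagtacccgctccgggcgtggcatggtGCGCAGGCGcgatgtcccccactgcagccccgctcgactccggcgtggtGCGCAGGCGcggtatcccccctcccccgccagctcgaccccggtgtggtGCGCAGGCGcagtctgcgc
COX8C: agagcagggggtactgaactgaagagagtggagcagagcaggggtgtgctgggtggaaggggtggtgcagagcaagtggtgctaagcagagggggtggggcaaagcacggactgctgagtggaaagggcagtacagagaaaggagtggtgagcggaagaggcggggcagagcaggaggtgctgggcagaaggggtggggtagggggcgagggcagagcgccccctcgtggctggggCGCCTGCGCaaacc
NDUFC2-KCTD14: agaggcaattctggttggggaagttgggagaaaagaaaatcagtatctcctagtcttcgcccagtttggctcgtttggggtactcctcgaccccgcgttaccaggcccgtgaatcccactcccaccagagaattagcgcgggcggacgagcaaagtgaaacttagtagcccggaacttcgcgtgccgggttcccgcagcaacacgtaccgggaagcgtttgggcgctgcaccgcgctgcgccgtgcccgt

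The UQCRC1 run is chr3:48609647-48609896 on the minus strand, and its NRF1 matches, CGCCTGCGC and CGCTTGCGC on the reverse strand, begin 46 and 12 bases before the start. UQCRC1 encodes a core protein of complex III. ATP5ME, a small membrane subunit of complex V, has the run chr4:674277-674526 on the minus strand with NRF1 matches from 219, 173 and 78 bases before the start. For COX8A, a small subunit of complex IV, the run is chr11:63974370-63974619 on the plus strand and the ETS match CTTCCGG begins 18 bases before the start. SDHB, the iron-sulfur subunit of complex II, has an ETS match 128 bases before its start in chr1:17054033-17054282 on the minus strand. The SDHA run, chr5:218154-218319 on the plus strand, is 166 bases long because it stops at the neighbouring gene CCDC127, and it holds the NRF1 letters GCGCAGGCG 4 times, from 166, 117, 68 and 19 bases before the start. COX8C, the testis form of the COX8 subunit, lies inside the span of UNC79. Its run chr14:93346932-93347181 on the plus strand holds an NRF1 match 14 bases before the start. The NDUFC2-KCTD14 run, chr11:78079863-78080112 on the minus strand, holds none of these letters. A match is a description of letters and not of a bound factor.

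Peak lists of the untreated libraries were of like length except for shTDP43 replicate 1. The untreated lists held 69453 to 73353 peaks, and 125 to 142 Mb under peaks, in all libraries but shTDP43 replicate 1, which had 57204 peaks and 91.6 Mb. That library also had the lowest background pileup of the untreated libraries, 1.05 against 1.62 to 2.01, a measure of depth read back from the lists. The treated lists held 15504 peaks for shNC and 8868 for shTDP43, with background pileups of 0.936 and 0.991. Of 8 markers of adrenergic neuroblastoma, 7 had a peak in all 6 untreated libraries (TH had none in any), with summed covered lengths of 86.3 to 88.9 kb in shNC and 85.6 to 88.3 kb in shTDP43. Of 5 markers of other cell types, COL1A1, PRRX1, PTPRC and ALB had no untreated peak, and FN1 alone gave sums of 0.604 to 1.27 kb in shNC and 0 to 0.444 kb in shTDP43. TARDBP itself had 14.2, 10.3 and 12.7 kb covered in shNC and 6.82, 9.87 and 10.2 kb in shTDP43, a log2 change of -0.28 ± 0.12 that did not pass (limma adjusted p = 0.443). Hybrid coverage is no RNA or protein level and does not check the knockdown.

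Most subunit genes carried hybrids in every untreated library. A peak was present in the window of 70 of 88 members (79.5%) in all 6 untreated libraries, against 59.9% of all coding genes. The share was 34 of 38 for complex I, 3 of 4 for complex II, 6 of 9 for complex III, 10 of 17 for complex IV and 17 of 20 for complex V. In the 5 other lists of nuclear mitochondrial genes taken up below, 80% to 86.7% of genes had a peak in all 6. The members did not stand out from those lists. Members are short, with a median span of 9.59 kb against 24.2 kb for all coding genes, and a larger part of them lay under peaks. The median member had 34.1%, 32.7% and 30.0% of its window covered in shNC replicates 1 to 3 and 17.6%, 31.8% and 30.8% in shTDP43 replicates 1 to 3. Over all coding genes these medians were 5.45% to 6.75% in shNC and 2.72% to 5.70% in shTDP43. In shNC replicate 1 the median was 54.5% for mitochondrial ribosomal protein genes and 40.1% for cytochrome c and ubiquinone synthesis. It was 22.9% for assembly factors, 16.9% for the citric acid cycle list and 16.7% for regulators of mitochondrial biogenesis. No test was made of these differences, and gene length was not matched.

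**Figure D1:**
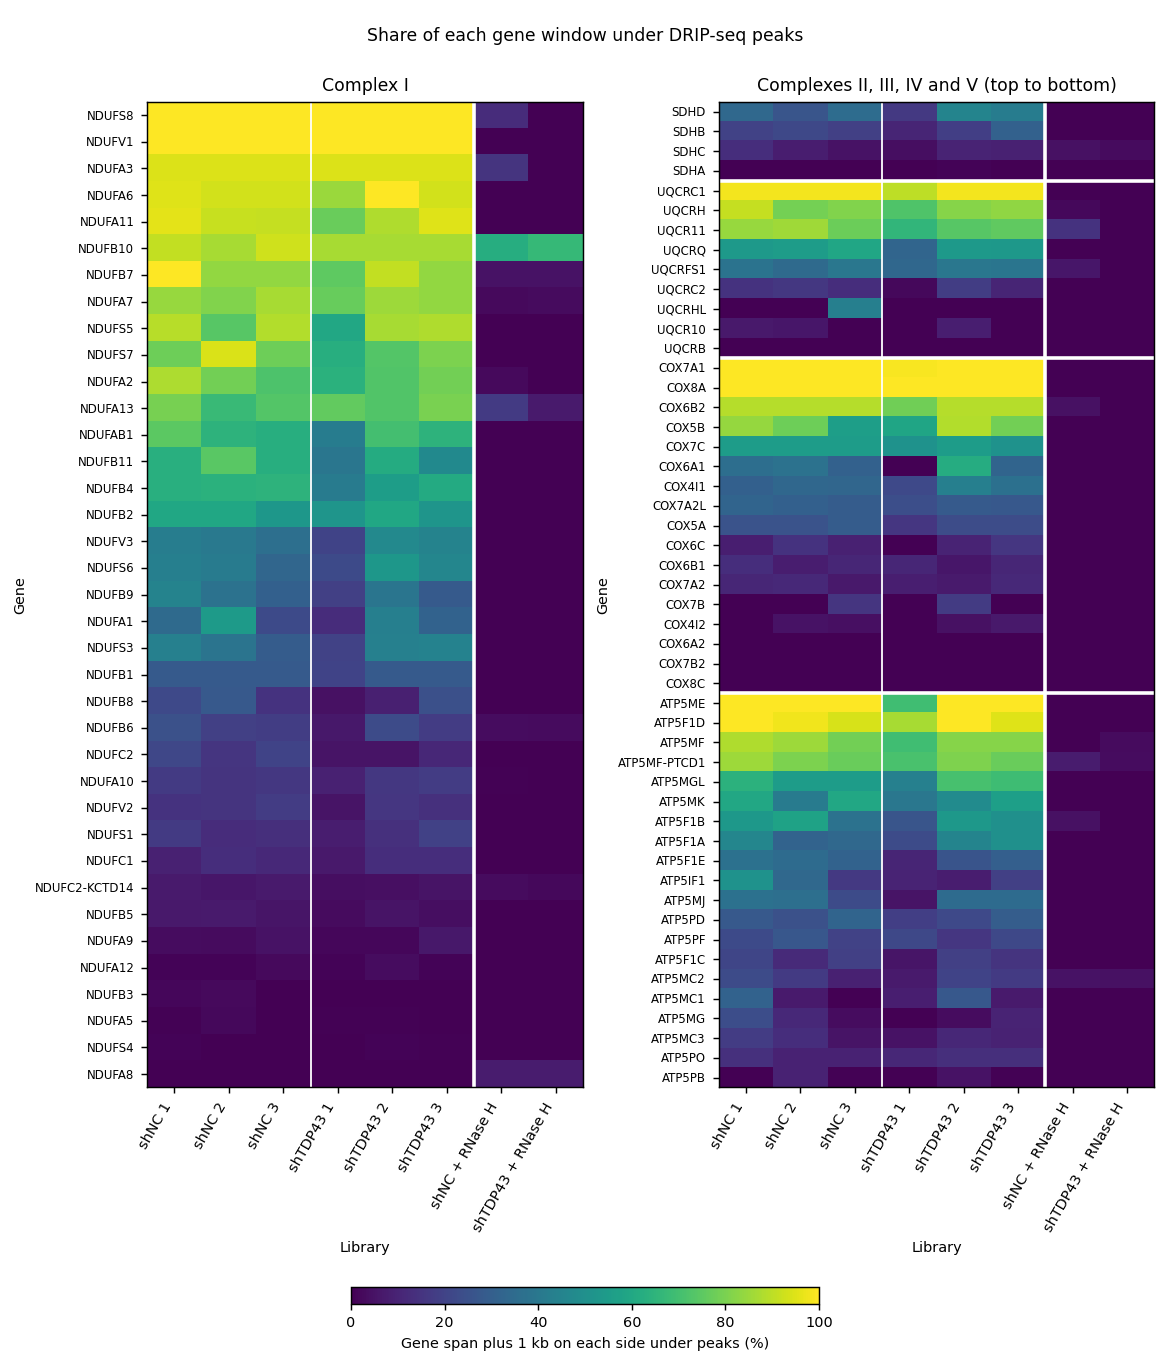
Share of each gene window under peaks (colour, 0 to 100%) for 87 of the 88 subunit genes (vertical axis, by complex and by mean shNC coverage) in the 8 libraries (horizontal axis). Complexes I, III, IV and V each run from genes nearly or fully covered in untreated libraries to genes with little or none, complex II has no such highly covered gene, and the treated libraries are dark for most genes.

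Coverage differed widely between subunits of the same complex. In shNC, 20 members (22.7%; 11.3% of all coding genes) had a mean of at least 80% of the window covered, 49 had from 10% to under 80%, 13 had less than 10% and 6 had none. The first class held 10 genes of complex I, 3 of complex III, 3 of complex IV, 4 of complex V and none of complex II. Of these, 3 genes, NDUFV1, NDUFS8 and COX8A, were covered from end to end in all 6 untreated libraries. NDUFV1 binds NADH and the flavin cofactor of complex I, and NDUFS8 holds iron-sulfur clusters. NDUFV1 lay in a single peak of 13.9 kb in each library, and NDUFS8 in peaks of 19.4 to 27.6 kb. The length of a peak need not be that of a hybrid. The widest peak over COX8A was 9.39 to 72.6 kb long. The window of COX8A measures 3.92 kb, and covered length cannot rise in a gene whose window is already full.

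Members on chromosome 19 were more covered than those on the other chromosomes pooled. The 12 members there had a median of 86.5% of the window covered in shNC, and 9 of them reached 80%. The other 76 members had a median of 27.5%, and 11 reached 80%. In single untreated libraries the chromosome 19 median ran from 76.4% to 87.2% and the other median from 10.3% to 28.1%, so the ranges did not overlap. All coding genes showed the same order, with 37.2% on chromosome 19 and 5.32% elsewhere. The 12 are NDUFA3, NDUFA7, NDUFA11, NDUFA13, NDUFB7, NDUFS7, UQCR11, UQCRFS1, COX6B1, COX6B2, COX7A1 and ATP5F1D. Another coding gene lies in the window of 47 of the 88 members, and such genes share peaks.

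Complex I held the member with the longest covered length outside readthrough genes. NDUFA10, an accessory subunit related to deoxyribonucleoside kinases, had 22.7, 20.2 and 22.1 kb covered in shNC and 12.5, 22.1 and 23.9 kb in shTDP43, within a window of 134.9 kb. Only shTDP43 replicate 1 lay apart from the other 5 libraries. NDUFA8, a cysteine-rich accessory subunit, was the only complex I gene without an untreated peak. NDUFA5, NDUFA12, NDUFB3 and NDUFS4 also had little coverage, with shNC means of 0.570, 0.524, 0.229 and 0.665 kb. NDUFS4, an accessory subunit of the NADH-oxidising arm and a known Leigh syndrome gene, had 1.04, 0.479 and 0.479 kb in shNC and 0, 1.097 and 0.719 kb in shTDP43 over a window of 124.7 kb.

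In complex II, 3 genes were covered in part and SDHA hardly at all. SDHB had 7.41, 8.12 and 7.03 kb covered in shNC and 3.82, 6.88 and 11.6 kb in shTDP43. SDHC and SDHD, which anchor the complex in the membrane, had a peak in all 6 untreated libraries. SDHA, the flavoprotein that oxidises succinate, had no coverage in 5 untreated libraries and 0.429 kb in shTDP43 replicate 2. The annotation lists 4 pseudogenes of SDHA, and the treatment of reads that fit more than 1 place is not stated, so the absence of peaks at SDHA is uncertain. Of the 50 members with a pseudogene named after them, 37 had a peak in all 6 untreated libraries, against 33 of the 38 without one.

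In complex III, UQCRH, the hinge protein that binds cytochrome c1, and UQCRC1 had the longest covered lengths, and their order changed between libraries. UQCRH measured 13.7, 11.9 and 12.2 kb in shNC and 10.9, 12.3 and 12.6 kb in shTDP43, and the groups overlapped. UQCRC1 was covered over 12.4 kb of its 12.6 kb window in 5 of the 6 libraries and over 11.4 kb in shTDP43 replicate 1. UQCRB, a ubiquinone-binding subunit, had no peak in any of the 8 libraries. UQCRHL, an intronless copy of UQCRH, had a peak in shNC replicate 3 alone, of 0.986 kb within its window.

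Tissue isoforms of complex IV did not follow their widely used counterparts. COX8A, the common form, was fully covered, and COX8C had no peak in any library. For COX6A the common form COX6A1 had 1.66, 1.73 and 1.43 kb covered in shNC and 0, 2.86 and 1.49 kb in shTDP43, while the muscle form COX6A2 had none. COX7B, the common form, had 1.51 kb in shNC replicate 3, 1.74 kb in shTDP43 replicate 2 and none in the other 4 untreated libraries, and COX7B2 had none anywhere. COX4I1 had 2.89, 3.14 and 3.08 kb in shNC and 2.09, 4.05 and 3.45 kb in shTDP43. Its counterpart COX4I2, known for its response to low oxygen, had 0, 0.427 and 0.388 kb in shNC and 0, 0.406 and 0.617 kb in shTDP43, below COX4I1 in every library.

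The order was the opposite for COX6B and COX7A. COX6B2, the testis form, had 6.22 kb of its 7.02 kb window covered in 5 libraries and 5.49 kb in shTDP43 replicate 1. COX6B1, the common form, had 1.62, 1.01 and 1.32 kb in shNC and 1.32, 0.750 and 1.32 kb in shTDP43, lower in every library. COX7A1, the muscle form, was covered over its whole 3.53 kb window in 5 libraries and over 3.49 kb in shTDP43 replicate 1. COX7A2, the common form, had 1.59, 1.66 and 0.982 kb in shNC and 1.22, 1.08 and 1.66 kb in shTDP43, in a window of 14.6 kb. COX6B1, COX6B2 and COX7A1 all lie on chromosome 19. COX6B2 shares its window with GARIN5B and COX7A1 with CAPNS1. COX7A2L, which joins complexes III and IV in supercomplexes, had the longest covered length of complex IV, with 11.4, 10.8 and 10.3 kb in shNC and 8.45, 10.1 and 9.81 kb in shTDP43.

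Outside the symbol rule, the NDUFA4 pair had the same order as COX6B and COX7A. COXFA4, the widely used form, had 0.826, 0 and 0.818 kb covered in shNC and 0, 0.333 and 0 kb in shTDP43. COXFA4L2, known as a hypoxia-induced form, was covered over its whole 7.86 kb window in all 6 untreated libraries. Neither had a peak after RNase H.

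**Figure D2:**
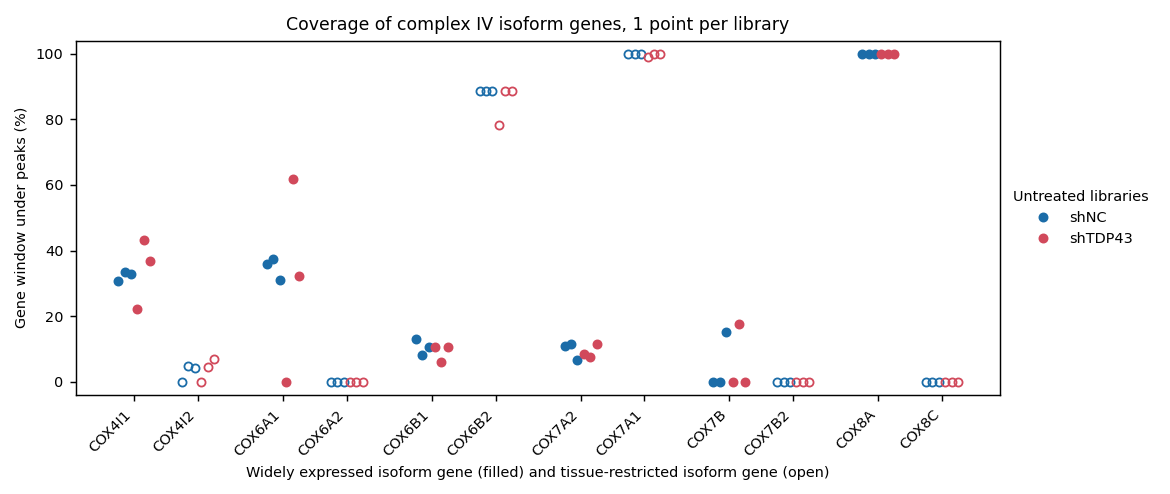
Share of the gene window under peaks (vertical axis, %) for 6 pairs of complex IV isoform genes, 1 point per untreated library, with the widely expressed form filled and the tissue-restricted form open. The open points lie above the filled ones for COX6B and COX7A, and at 0 for COX6A2, COX7B2 and COX8C.

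In complex V the readthrough gene ATP5MF-PTCD1 had the longest covered length of all members. It had 43.9, 41.4 and 39.6 kb in shNC and 36.6, 41.4 and 39.6 kb in shTDP43, and its window takes in BUD31, PTCD1, CPSF4 and ATP5MF. ATP5ME was covered over its whole 3.84 kb window in 5 libraries and over 2.67 kb in shTDP43 replicate 1. ATP5F1D, the delta subunit of the F1 part, had 5.08, 4.97 and 4.77 kb covered in shNC and 4.42, 5.08 and 4.84 kb in shTDP43. ATP5F1A and ATP5F1B, which form the catalytic ring, had means of 37.2% and 49.5% of the window covered in shNC. The c ring that turns in the membrane comes from ATP5MC1, ATP5MC2 and ATP5MC3, which had means of 12.9%, 16.4% and 12.1%.

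Coverage at the members centred on gene starts. A start is listed for 71 of the 88 members and for 15812 coding genes in all, and 17 members have none. Within 500 bp of the start, a peak was present in 52, 51 and 47 of 71 members in shNC (73.2%, 71.8% and 66.2%) and in 43, 50 and 48 in shTDP43 (60.6%, 70.4% and 67.6%). Over all listed genes the shares were 53.3% to 56.1% in shNC and 45.4% to 53.9% in shTDP43, each lower than the share of members in the same library. Gene ends were also covered more often in members, in 50.7% to 57.7% in shNC and 43.7% to 59.2% in shTDP43, against 33.7% to 35.6% and 29.4% to 34.6% of all genes. Since members are short, start and end can lie under the same peak. Treated libraries had a start peak in 2 members for shNC and 1 for shTDP43.

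**Figure D3:**
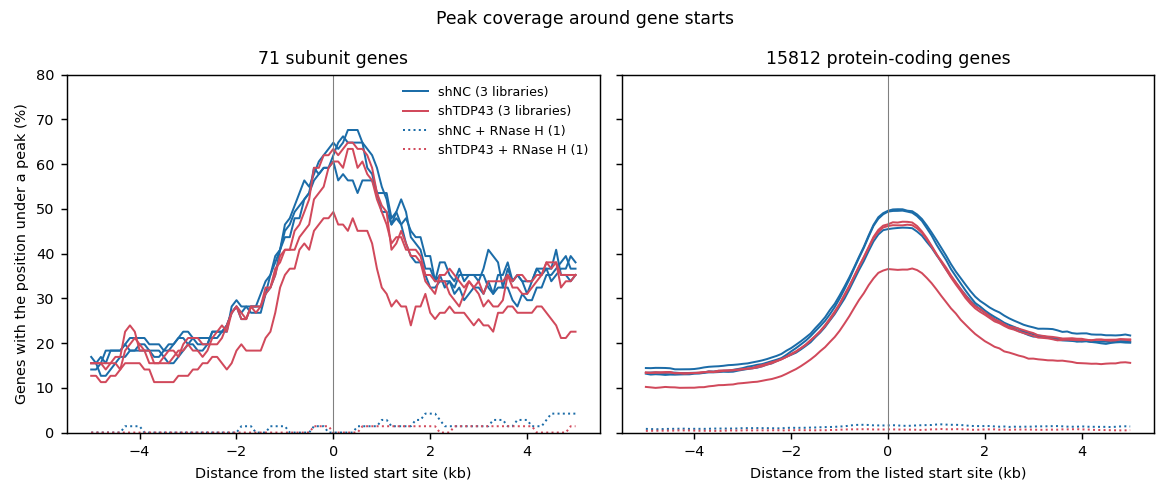
Share of genes with the position under a peak (vertical axis, %) by distance from the listed start (horizontal axis, kb; positive values lie in the direction of transcription), 1 line per library, for 71 members and for 15812 coding genes. The untreated lines of the members first reach their highest share 0 to 300 bp after the start, at 49.3% in shTDP43 replicate 1 and at 60.6% to 67.6% in the other 5 libraries. In shNC replicate 1 the highest share holds up to 500 bp.

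By complex, the start lay under a peak in all 6 untreated libraries in 22 of 33 listed members of complex I, 2 of 3 of complex II, 5 of 7 of complex III, 6 of 14 of complex IV and 7 of 14 of complex V. It was free of peaks in all 6 in 16 members, and 7 of these encode complex IV: COX6A2, COX6B1, COX7A2, COX7A2L, COX7B, COX7B2 and COX8C. COX7A2L is thus long covered but free at its listed start. The 42 members with a start peak in all 6 libraries had a median GC content of 63.3% and 27.5 CpG in the 300 bases around the start. The 16 with no start peak had 52.7% and 13.5. All listed genes had the same order, 67% and 28 CpG against 55% and 7. Of the 15812 listed genes, 6885 and 6281 fell in these classes, against 42 and 16 of the 71 members.

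The motif letters were more frequent in member promoters than in all listed promoters. In the window from 250 bases before to 50 after the start, on both strands, NRF1 letters were in 22 of 71 members (31.0%) and 11.05% of all promoters. ETS letters were in 20 members (28.2%) against 14.1%, and YY1 letters in 16 (22.5%) against 4.79%. At least 1 of the 3 was in 42 members (59.2%) against 25.9%. The letters TCAAGGTCA of the oestrogen-related receptor alpha were in SDHD alone (0.234% of all promoters). None of the 79 matches overlapped a match to another motif. A start peak in all 6 untreated libraries was present in 12 of the 22 members with NRF1 letters, 16 of the 20 with ETS letters and 11 of the 16 with YY1 letters, against 62.2%, 61.6% and 68.2% of all listed genes with the same letters. Among members without the letters it was present in 30 of 49 for NRF1, 26 of 51 for ETS and 31 of 55 for YY1. No test was made of these shares. The 9-base NRF1 and YY1 letters were chosen after counts with longer letters, of 10 and 11 bases, had been seen, so that the letters could be printed in full. The longer letters gave lower shares, again higher in members than in all promoters: NRF1 in 17 members (23.9%) against 8.60% of all promoters, YY1 in 13 (18.3%) against 3.36%, and at least 1 of the 3 in 38 (53.5%) against 23.1%. A start peak in all 6 untreated libraries was then present in 8 of the 17 members with NRF1 letters and 8 of the 13 with YY1 letters.

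Where a peak began or ended at the same base in several libraries, a restriction site was nearly always there. In promoter windows, the share of peak edges with a recognition site of 1 of the 5 enzymes within 10 bases was 3.82% (143 of 3748) for edges seen in 1 library, 92.4% (170 of 184) for edges in 2 or 3 libraries and 99.5% (408 of 410) for edges in 4 or more. Member windows held 1619 distinct edges, of which 246 (15.2%) were shared by at least 2 libraries, against 12.2% genome-wide. An edge at a cut site can mark the end of a fragment, so covered length there need not be the length of a hybrid.

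TDP-43 knockdown was not accompanied by a called change at any subunit gene. Of the 88 members, 76 reached a mean covered length of 500 bp over the 6 untreated libraries and were tested with limma together with all 12810 such coding genes, on covered length scaled to the library total. None of the 76 had more coverage in shTDP43 (0.172% of all genes tested) and none had less (0.749%) at an adjusted p under 0.05. At an unadjusted p under 0.05 there were 2 members (2.63%), NDUFC2 and NDUFC2-KCTD14, against 11.5% of all genes. The median log2 change of the members was 0.04, against 0.05 over all genes tested, with 44 members above 0 and 32 below. Medians by complex were 0.05, 0.04, 0.05, 0.11 and 0.00 for complexes I to V. A gene fully covered in all 6 libraries takes a log2 change of 0.20 from scaling alone, since the total of shTDP43 replicate 1 was the shortest. This library was below all 5 others in 58 of the 76 members. When the peaks that overlap a treated peak of the same genotype were removed, 5 of 71 members were called with more coverage (7.04%; 8.80% of all genes). NDUFV1 and UQCRH were among them, although NDUFV1 was covered over its whole window in all 6 libraries before the removal. In the same setting 2 had less (2.82%; 5.50% of all genes), NDUFC2 and NDUFC2-KCTD14. Both shares lie below those of all genes. The removal used 15504 treated peaks for shNC and 8868 for shTDP43, so the filter differed between the genotypes. Counts in this setting therefore cannot be read as a change with knockdown. Removing peaks that overlap a treated peak of either genotype left 0 and 0. The 12 members not tested were NDUFA5, NDUFA8, NDUFB3, SDHA, UQCR10, UQCRB, UQCRHL, COX4I2, COX6A2, COX7B2, COX8C and ATP5PB.

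**Figure D4:**
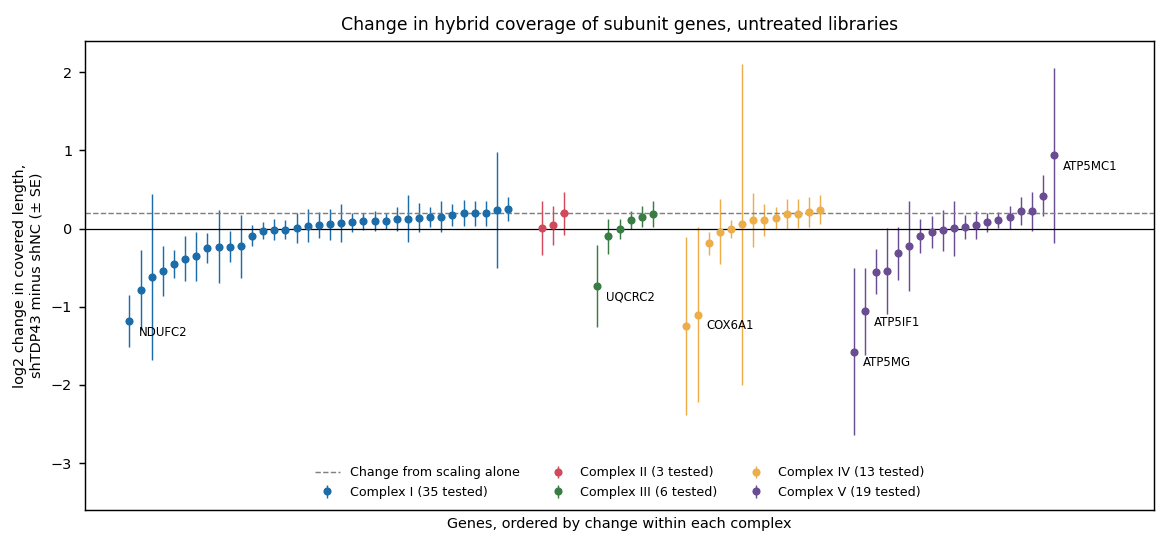
log2 change in scaled covered length, shTDP43 minus shNC (vertical axis), with its standard error, for the 76 members tested, ordered within each complex (horizontal axis). Most of the points above 0 lie below the dashed line at 0.20, the change from scaling alone, and NDUFC2 is the member whose change is largest against its error.

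NDUFC2, an accessory subunit of the membrane arm of complex I, had 2.89, 2.08 and 2.75 kb covered in shNC and 0.725, 0.725 and 1.51 kb in shTDP43. All 3 shTDP43 libraries lay below all 3 shNC libraries. The log2 change was -1.19 ± 0.33, with an adjusted p of 0.186 by limma, so it did not pass. It was -3.15 over the gene span without the added 1 kb (limma adjusted p = 0.169) and -1.77 with peaks at a −log10 q of at least 5 (limma adjusted p = 0.651). Within the span shTDP43 replicates 1 and 2 had no peak, so the size of -3.15 depends on the 100 bp added to each length. The shNC peaks in the span had −log10 q values of 2.15 to 7.35. The libraries differed within the gene span, chr11:78068297-78079862, and in the 1 kb added beyond its upper end. From position 78078272 upward, shNC had 2 peaks in replicate 1 (1.74 and 1.30 kb), 2 in replicate 2 (1.13 and 0.286 kb) and 3 in replicate 3 (0.679, 0.331 and 0.976 kb). There shTDP43 had 1 peak, of 0.446 kb, in replicate 3. The shNC peaks of 1.30, 0.286 and 0.976 kb begin beyond the gene span and run past the end of the window. At the lower end of the window a peak was present in all 6 libraries. Between that peak and position 78078272 only shNC had peaks, of 0.305 kb in replicate 1 and 0.468 kb in replicate 3. The listed start of the readthrough gene NDUFC2-KCTD14 is the upper end of NDUFC2. Within 500 bp of this start, 651, 41.0 and 379 bp were covered in shNC and 0, 0 and 446 bp in shTDP43. The groups overlapped there. NDUFC2-KCTD14 as a whole had 4.90, 4.09 and 4.76 kb in shNC and 2.52, 2.73 and 3.51 kb in shTDP43. Its log2 change was -0.45 ± 0.17 (limma adjusted p = 0.366), from the same peaks as NDUFC2. KCTD14 itself had no peak in any library.

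In the other complexes, the members with the smallest p-values had adjusted values of 0.527 or more by limma. ATP5F1E, the epsilon subunit of complex V, had 3.32, 3.10 and 2.78 kb covered in shNC and 0.913, 2.32 and 2.70 kb in shTDP43, with no overlap and a log2 change of -0.55 ± 0.29 (adjusted p = 0.527), which was -0.25 without shTDP43 replicate 1. ATP5PO, the stalk subunit that confers oligomycin sensitivity, had 2.00, 1.35 and 1.35 kb against 1.61, 1.94 and 1.96 kb, with overlap and a change of 0.42 ± 0.26 (adjusted p = 0.608). UQCRC2, the other core protein of complex III, had 4.78, 5.18 and 4.18 kb in shNC and 0.720, 5.83 and 3.32 kb in shTDP43. Its change of -0.73 ± 0.53 (limma adjusted p = 0.634) was -0.06 without shTDP43 replicate 1.

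COX5A and COX5B, subunits of complex IV, had log2 changes of opposite sign, and neither passed. Without shNC replicate 3 they were -0.09 and 0.11. COX5A had 5.21, 5.16 and 5.92 kb in shNC and 3.18, 4.72 and 4.72 kb in shTDP43, and its log2 change was -0.19 ± 0.15. COX5B had 3.63, 3.36 and 2.43 kb in shNC and 2.55, 3.83 and 3.40 kb in shTDP43, and its change was 0.24 ± 0.19. The adjusted p was 0.634 for both by limma. NDUFA13, also known as GRIM-19, had 11.1, 9.46 and 10.3 kb in shNC and 10.6, 10.2 and 11.2 kb in shTDP43, with a change of 0.25 ± 0.15 (limma adjusted p = 0.604). This was 0.053 with no scaling and 0.083 without shTDP43 replicate 1. SDHD had 3.67, 2.90 and 3.84 kb against 1.81, 4.94 and 4.61 kb, with a change of 0.19 ± 0.27 (limma adjusted p = 0.727). It ran from 0.016 without shTDP43 replicate 2 to 0.48 without shTDP43 replicate 1. UQCRC1 had a change of 0.15 ± 0.13 (limma adjusted p = 0.634), which was -0.041 with no scaling and 0.028 without shTDP43 replicate 1. For these 3 genes the groups overlapped.

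Unscaled covered lengths did not overlap between the genotypes in 9 of the 76 members (11.8%), all lower in shTDP43, against 14.0% of all genes tested. The 9 were NDUFB4, NDUFB5, NDUFB11, NDUFC2, NDUFC2-KCTD14, UQCR11, COX5A, COX7A2L and ATP5F1E. No member was higher in all shTDP43 libraries than in all shNC libraries (0.796% of all genes). These shares lie at or below those of all genes.

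Other nuclear genes of the same organelle gave a like picture. By limma none of the 46 tested assembly factors, 69 mitochondrial ribosomal protein genes, 21 regulators of mitochondrial biogenesis, 18 genes of the citric acid cycle and pyruvate entry and 13 genes of cytochrome c and ubiquinone synthesis passed in either direction. Over all genes tested, 0.172% passed with more coverage and 0.749% with less. At an unadjusted p under 0.05 there were 2, 0, 2, 1 and 2 of the list genes. These are 4.35%, 0%, 9.52%, 5.56% and 15.4% of the lists, against 11.5% of all genes tested. Their median log2 changes were 0.02, 0.09, 0.04, 0.06 and -0.02. The smallest adjusted p was that of SDHAF4, which helps attach the flavin-bearing SDHA to complex II. SDHAF4 had 3.00, 3.44 and 3.19 kb covered in shNC and 0.649, 1.15 and 1.46 kb in shTDP43, with a log2 change of -1.37 ± 0.27 (limma adjusted p = 0.0663). TFB2M, a mitochondrial transcription factor, had 4.62, 2.93 and 3.20 kb in shNC and 0.781, 1.23 and 1.76 kb in shTDP43, with a change of -1.30 ± 0.27 (limma adjusted p = 0.0791). In both genes all shTDP43 libraries lay below all shNC libraries, as in 14.0% of all genes tested. MRPL37 (0.27 ± 0.13, adjusted p = 0.470), IDH2 (0.30 ± 0.11, adjusted p = 0.367) and COQ7 (-0.49 ± 0.18, adjusted p = 0.347) led the other lists in the limma test.

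Covered length was much shorter after RNase H. The treated libraries also had a lower background pileup than every untreated one, 0.936 in shNC and 0.991 in shTDP43. The part of depth in the loss was not tested. With 1 treated library per genotype there is no replicate check and no test. Of the members whose mean covered length reached 500 bp in the untreated libraries of the genotype, 75 of 78 in shNC (96.2%; 95.7% of all genes) and 71 of 74 in shTDP43 (95.9%; 97.3% of all genes) were at least 2-fold shorter in covered length after treatment, with 100 bp added to both lengths. These shares lie near those of all genes. No peak at all was listed after treatment in 58 of the 78 (74.4%; 64.3% of all genes) and 63 of the 74 (85.1%; 77.0% of all genes). No test was made of this difference, and gene length was not matched here either. Summed over the 88 members, covered length was 459.4, 427.3 and 412.6 kb in untreated shNC and 24.4 kb after RNase H, and 309.8, 435.6 and 436.4 kb in untreated shTDP43 and 13.9 kb after RNase H. This left 5.63% in shNC and 3.53% in shTDP43, against 5.77% and 3.23% over all coding genes.

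**Figure D5:**
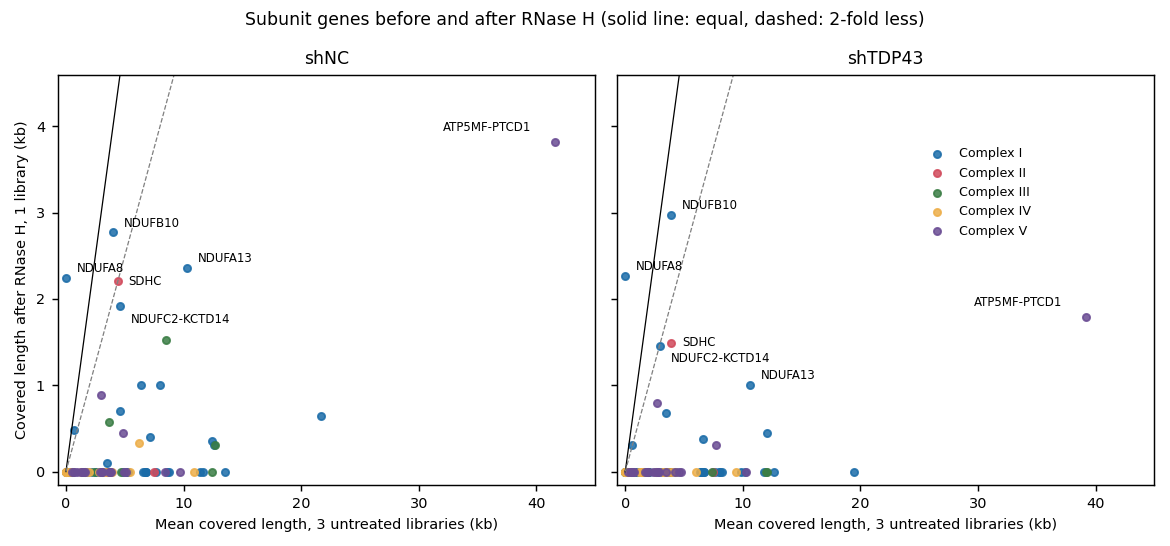
Covered length after RNase H (vertical axis, kb, 1 library) against the mean of the 3 untreated libraries (horizontal axis, kb) for the 88 members, by complex, in shNC (left) and shTDP43 (right). Most genes lie at 0 after treatment. NDUFB10 lies between the solid line of equal length and the dashed line of 2-fold less, and NDUFA8 lies to the left of both with no untreated coverage.

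NDUFB10, an accessory subunit of the membrane arm of complex I, and NDUFS4 were shortened by less than 2-fold in both genotypes. NDUFB10 had 4.04, 3.85 and 4.11 kb covered in untreated shNC, 3.85 kb in each untreated shTDP43 library, 2.77 kb after RNase H in shNC and 2.98 kb in shTDP43. This left 69.2% and 77.3%. Untreated libraries had 1 peak of 7.05 to 7.31 kb over NDUFB10 and its neighbour RPS2, with a fold enrichment of 58.9 to 101 in the authors' deposited lists. In the treated libraries the peaks there had a fold of 4.52 to 8.04. A covered length counts a weak peak as fully as a strong one, and folds from separate lists are not on 1 scale.

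The highest share left in shNC by complex was 72.0% in NDUFS4, 50.02% in SDHC, 17.9% in UQCR11, 5.25% in COX6B2 and 29.7% in ATP5MC2. For NDUFS4 this is 1 peak of 0.479 kb. At SDHC, 2.21 kb was left in shNC and 1.49 kb in shTDP43, in a peak ending at the same base (chr1:161358001-161360209 in shNC) in both treated libraries. NDUFC2-KCTD14 retained 1.91 kb (41.8%) in shNC and 1.46 kb in shTDP43. NDUFB10, NDUFS4 and SDHC were the members shortened by less than 2-fold in shNC, and NDUFB10, NDUFC2-KCTD14 and NDUFS4 those in shTDP43. NDUFC2-KCTD14 counts there only through the added 100 bp, since its mean of 2.92 kb fell to 1.46 kb, exactly 2-fold.

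NDUFA8 had peaks only after RNase H. No untreated library had a peak in its 29.3 kb window, whereas treated shNC had 1 of 2.25 kb (chr9:122132401-122134647) and treated shTDP43 1 of 2.27 kb (chr9:122132380-122134647). Both lie over the end of the gene, which is transcribed from the minus strand, and both end at the same base. In the authors' deposited lists their fold enrichment was 9.32 and 6.76.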

How the data were processed

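Hybrid peaks were taken from 8 deposited lists, 1 per library, called separately by library per the file headers' peak names. Per the submitters' processing notes, MACS2 2.2.6, Bowtie2 2.4.4 and SAMtools were used with hg38. The settings and the control for peak calling are not given in the sources used here. An input library (1 in the labels) was not analysed here. Each deposited peak carries a fold enrichment ratio, −log10 p and −log10 q values and a score from the authors' peak caller. These describe or filter peaks within a list only. Read counts per peak were not used.

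Covered length per gene was the length under peaks of its GRCh38.p14 RefSeq span with 1 kb added at both sides, on chromosomes 1 to 22 and X. Presence needed 1 bp. The test used log2 of this length, after scaling to the median total of the libraries and adding 100 bp. Coding genes whose mean reached 500 bp over the 6 untreated libraries, 12810 in all, were fitted in R 4.3.3 with limma 3.58.1 (lmFit and trended eBayes), with Benjamini-Hochberg adjustment over all of them. Printed lengths are unscaled. RNase H ratios are unscaled, with 100 bp added. The deposited lists give no read depth per value, so a background pileup solved from fold and p at 3000 summits per library stands in for it.

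Members and gene lists were chosen with earlier results of these data known. Named in each complex were called members, the smallest p in each direction, the longest covered length in shNC, members with no untreated peak, the extremes after RNase H, tissue isoforms with their counterparts, and readthrough or copied genes. The lowest share left after RNase H was 0 in many members, which are given as a count. Others, such as NDUFB10, SDHA and NDUFV1, were named after their values were seen. Alternatives covered scaling, thresholds, peak filters, the pseudocount, the replicate block and each library left out. The values of 1 member are not reported by name here, though it is in every count.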

Additional observations from a re-analysis of the deposited data

Results flagged for a closer look

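The mitochondrial genome, which encodes the remaining subunits and was outside the gene comparison, had 4 or 5 peaks in every library. It had 14.8, 14.9 and 14.4 kb covered in untreated shNC and 15.2, 15.1 and 15.2 kb in untreated shTDP43. After RNase H it had 14.4 kb in shNC and 13.4 kb in shTDP43. The lowest untreated shTDP43 library, with 15.1 kb, was above the treated one. In shNC the treated library was not below all untreated ones. Covered length changed little here while the nuclear subunit genes lost most of theirs. It does not measure the height of the signal.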

How the results depend on the processing

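Counts of members called in shTDP43 were 0 more and 0 less under all alternatives but 1. Without peaks that overlap a treated peak of the same genotype they were 5 and 2 of 71, NDUFC2 passed with a log2 change of -1.34 (limma adjusted p = 0.0366), the members' median log2 change was -0.092, and UQCRC1 was at -0.0095. That setting, which filters the genotypes by treated lists of unequal length, gave 1070 more and 669 less over all genes. Removing peaks that overlap either treated list, an alternative chosen after seeing the data, gave 0 and 0 members, with 26 and 52 of all genes. With no scaling the median was -0.15 for the members and for all genes, UQCRC1 was at -0.041, and 1 gene had more and 19 less. Other counts over all genes were 44 more with equal peak numbers, 3 more and 30 less at a −log10 q of at least 5, 2 and 30 at 10, 36 and 160 with a pseudocount of 500 bp, and 14 and 61 without the variance trend. Leaving out 1 library gave 6 to 57 more and 12 to 166 less, with 57 and 166 without shTDP43 replicate 1 and 12 less without shNC replicate 1. At a −log10 q of at least 10, 43 members had a peak in all 6 untreated libraries. SDHD was then at -3.26 ± 1.39, COX5B at -0.46 ± 1.61, COX5A at 3.45e-05 ± 0.19 and ATP5PO at -1.26 ± 1.15, and COX5B was at -1.31 ± 1.38 at 5. None of these passed, with limma adjusted p-values of 0.664 or more. With untreated lists cut to the length of the treated one, 42 of 44 members were at least 2-fold shorter after RNase H in shTDP43. The replicate block gave 9 more and 65 less over all genes and 0 members. Deviations of same-numbered libraries correlated at -0.171, 0.062 and -0.172, against -0.176 to 0.229 for libraries with other numbers. With 3 libraries per group these values cannot show whether the numbers mark a pairing. The causes were not tested.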
